A study of Mus musculus with 12 samples.

Results

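The hemoglobin genes and Alas2 were followed across RNA-seq libraries of the mouse medial prefrontal cortex. Transcripts of this kind are often read as a sign of blood left in a tissue. The members were 7 gene names: the alpha globins Hba-a1 and Hba-a2, the beta globins Hbb-bs, Hbb-bt, Hbb-b1 and Hbb-b2, and Alas2. Of these, 5 occurred among the 55678 gene names of the expression table. Hbb-b1 and Hbb-b2 did not occur in it, and 4 of the 5 present names passed the filter for testing.

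The series crossed strain with stress. Mice were C57BL/6JmsSlc, called B6 here, or BALB/cCrSlc, called BALB/c, and within each inbred strain some underwent chronic restraint stress (CRS) while controls were only handled. CRS mice spent 6 h a day for 21 days in a restrainer, and the mice sequenced were 9 to 10 weeks old. Each of the 4 groups (B6 control, B6 CRS, BALB/c control and BALB/c CRS) held 3 libraries, each from a numbered animal, and animals are named here by group and number. RNA came from a 1.5 mm punch of brain slices taken after behavioral testing, and libraries were made with a stranded mRNA kit. Whether the vessels were perfused before dissection, and the sex of the animals, are not given in the sources used here.

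Hemoglobin is a tetramer of alpha-type and beta-type globin chains, each holding a heme group. In adult mammals its mRNA is most abundant in erythroblasts and reticulocytes, and mature red cells still carry some, so globin reads in a dissected tissue can come from blood in its vessels. Low levels of globin mRNA have also been described in neurons and glia. In bulk tissue, fewer cells of a type and less RNA per cell cannot be told apart. Alas2 encodes the erythroid form of the enzyme that starts heme synthesis, while Alas1 encodes the form used in other tissues. Laboratory mice carry different haplotypes of the adult beta globin locus: C57BL/6 has the single haplotype, with the genes Hbb-bs and Hbb-bt, and BALB/c has the diffuse haplotype, with Hbb-b1 and Hbb-b2.

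Values were in TPM, a unit of transcript abundance. They are corrected for transcript length and sum to 1000000 in each library, so depth is unknown and genes can be compared with each other. Because Hbb-b1 and Hbb-b2 were not among the gene names, beta globin RNA of BALB/c mice could be counted only under the names of the B6 haplotype. How well it was captured there was not tested, and a lower beta globin level in BALB/c cannot be told apart from a poorer match of its transcripts.

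The copies within each globin pair were nearly identical in the reference, which limits how well reads can be assigned to a single copy. Over the coding sequence of GENCODE M21, Hba-a1 and Hba-a2 differed at 1 of 426 positions, and Hbb-bs and Hbb-bt at 1 of 441. Counted from the first base of the start codon in Hba-a1 and Hbb-bs, the differences were C381T for the alpha pair and C417T for the beta pair. Both lay at position 3 of a codon in exon 3 and left the encoded amino acid the same. The stretches around them are shown on the coding strand, with the differing base in capitals (GRCm38, Hba-a1 at chr11:32284313-32284373 and Hba-a2 at chr11:32297130-32297190 on the plus strand, Hbb-bs at chr7:103826668-103826722 and Hbb-bt at chr7:103812659-103812713 on the minus strand).
Hba-a1: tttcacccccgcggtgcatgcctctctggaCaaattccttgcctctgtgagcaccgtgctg
Hba-a2: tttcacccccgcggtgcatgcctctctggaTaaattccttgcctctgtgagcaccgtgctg
Hbb-bs: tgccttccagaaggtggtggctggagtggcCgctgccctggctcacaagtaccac
Hbb-bt: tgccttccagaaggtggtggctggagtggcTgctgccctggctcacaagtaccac
Apart from these bases, the copies are told apart by their untranslated ends. Of all 150-base windows of the Hba-a2 transcript, 65.7% also occurred in Hba-a1, and of those of Hba-a1, 48.4% occurred in Hba-a2. For the beta pair the shares were 58.7% of Hbb-bs windows and 50.7% of Hbb-bt windows. No 31-base window of Hba-a2 occurred in Hbb-bs (0 of 524), so reads of these genes can be told apart. Values of a single copy are therefore uncertain, and sums over each pair are given beside them.

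The pairs also differ in how far they are alike upstream of the RefSeq start. In all 4 globin genes present, this start lies inside the GENCODE M21 locus given further below. The windows thus reach into the annotated gene, and the Hbb-bs stretch printed here lies wholly within it. Over the 250 bases before the RefSeq start, Hba-a1 and Hba-a2 shared an identical run of 247 bases, whereas the longest run shared by Hbb-bs and Hbb-bt was 14 bases. A promoter of each family is shown by its last 130 bases before the RefSeq start (GRCm38.p6, Hba-a2 at chr11:32296362-32296491 on the plus strand, Hbb-bs at chr7:103827929-103828058 on the minus strand). In capitals are 3 motifs: the CCAAT box, the sequence CACCC bound by erythroid factors, and ATATAA, a form of the TATA box.
Hba-a2: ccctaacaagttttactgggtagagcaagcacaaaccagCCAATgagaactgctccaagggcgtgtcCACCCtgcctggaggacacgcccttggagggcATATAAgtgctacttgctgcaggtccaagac
Hbb-bs: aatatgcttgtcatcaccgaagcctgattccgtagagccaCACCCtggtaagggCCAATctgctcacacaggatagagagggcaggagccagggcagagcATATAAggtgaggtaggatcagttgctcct
These motifs and a further one, the letters GATAA of the GATA factor motif, were searched on both strands over 250 bases, and each was found in the windows of all 4 globin genes present. The TATA-like motif began 28 to 31 bases before the start. Over the 32851 promoters of the RefSeq table, 9.1% held ATATAA, and 33.8% held the CCAAT box. CACCC was found in 52.0% of them, the GATA motif in 22.6%, and all 4 motifs in 0.466%. The Alas2 window held CACCC at 3 places and the GATA motif at 1, all on the reverse strand, and neither of the other motifs. These matches describe the letters in the windows and not binding.

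The alpha globins were found at moderate levels. Hba-a2 (chr11:32296489-32297298 in GENCODE M21, GRCm38) was at 35.1, 13.2 and 10.7 TPM in B6 control 2, 3 and 9, and at 9.52, 14.9 and 13.7 TPM in B6 CRS 12, 13 and 14. In BALB/c it was at 13.9, 12.3 and 5.76 TPM in control 5, 9 and 10, and at 18.9, 3.11 and 1.38 TPM in CRS 12, 13 and 15. B6 control 2 stood highest, BALB/c CRS 13 and 15 stood lowest, and the 4 groups overlapped. Its mean over the 12 libraries, 12.7 TPM, lay above that of 51.0% of the 16423 genes tested.

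Hba-a1 (chr11:32283511-32284465) was lower than Hba-a2 in all 12 libraries. It was at 26.2, 9.42 and 5.05 TPM in B6 control 2, 3 and 9, and at 4.78, 4.52 and 6.06 TPM in B6 CRS 12, 13 and 14. The BALB/c libraries gave 9.57, 5.11 and 1.47 TPM in control 5, 9 and 10, and 6.60, 0 and 0.948 TPM in CRS 12, 13 and 15. The value of BALB/c CRS 13 was listed at 0 while Hba-a2 of the same library was at 3.11 TPM. Summed over the pair, alpha globin ranged 26.4-fold, from 2.32 TPM in BALB/c CRS 15 to 61.3 TPM in B6 control 2.

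Among the beta globins, Hbb-bs (chr7:103826534-103828096) carried most of the RNA. Hbb-bs was at 42.1, 19.1 and 9.98 TPM in B6 control 2, 3 and 9, and at 7.92, 14.5 and 12.2 TPM in B6 CRS 12, 13 and 14. In BALB/c its levels were 14.9, 7.87 and 3.80 TPM in control 5, 9 and 10, and 13.6, 0.975 and 2.65 TPM in CRS 12, 13 and 15. As with alpha globin, B6 control 2 was highest, and the lowest were BALB/c CRS 13 and 15.

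Hbb-bt (chr7:103812524-103813996), the minor copy, was at 7.08, 1.86 and 1.31 TPM in B6 control 2, 3 and 9, and at 2.05, 1.02 and 3.87 TPM in B6 CRS 12, 13 and 14. In BALB/c control 5, 9 and 10 it was at 0.198, 2.29 and 0.973 TPM, and in BALB/c CRS 12, 13 and 15 at 0.425, 0.251 and 0 TPM. All 6 B6 libraries were above 1 TPM, against 1 of the 6 BALB/c libraries. Both beta globins together ranged 40.1-fold, from 1.23 TPM in BALB/c CRS 13 to 49.2 TPM in B6 control 2.

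Alas2 (chrX:150547375-150570638) was barely present. It was at 0.190, 1.07 and 0.0508 TPM in B6 control 2, 3 and 9, and at 0.273, 0.280 and 0.166 TPM in B6 CRS 12, 13 and 14. The BALB/c values were 0.122, 0.102 and 0 TPM in control 5, 9 and 10, and 0.710, 0 and 0 TPM in CRS 12, 13 and 15. Only B6 control 3 reached 1 TPM, and the library with the most globin RNA was not the one with the most Alas2. Alas2 was therefore not tested. Its nonerythroid counterpart Alas1 ranged from 49.7 to 82.2 TPM.

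**Figure D1:**
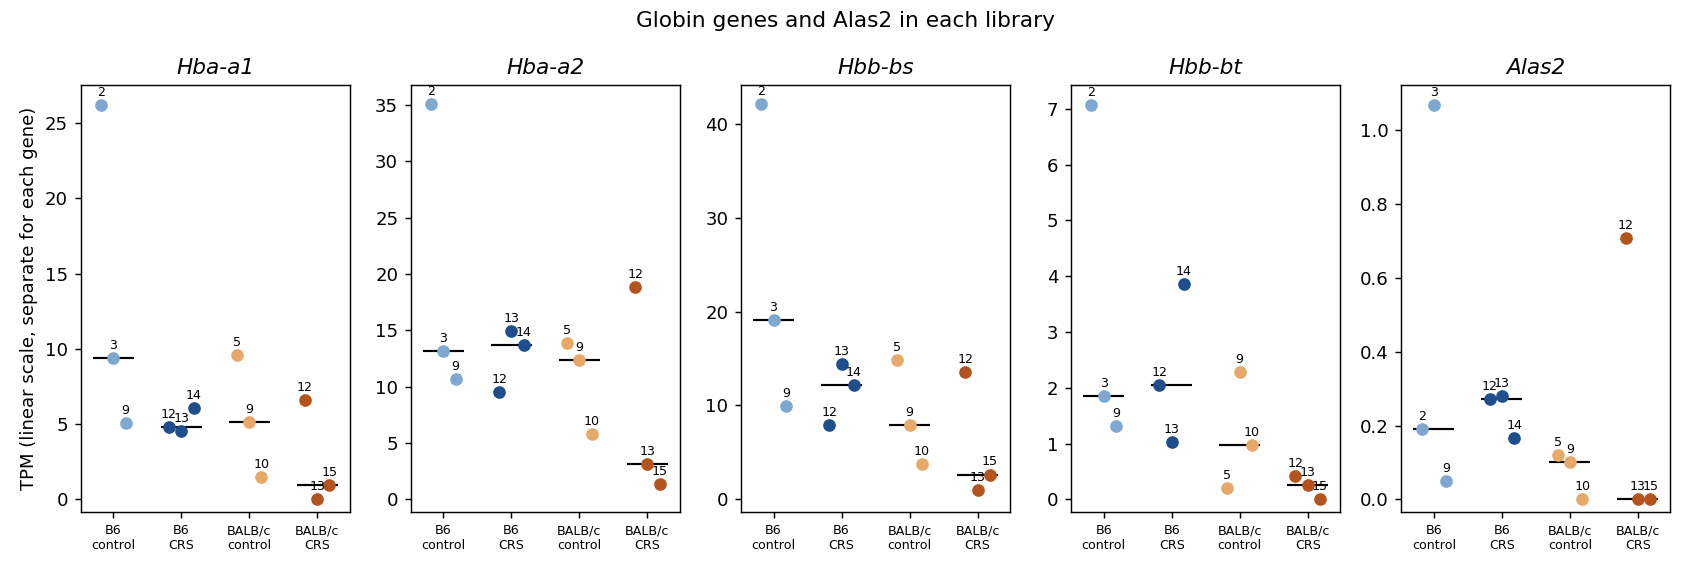
TPM (linear scale, separate for each gene) of the 5 genes present, with 1 point per library labelled by animal number and a bar at the median of each group of 3. B6 control 2 is the highest library for the 4 globins, at 26.2 TPM of Hba-a1 and 42.1 TPM of Hbb-bs, while the highest Alas2 value, 1.07 TPM, is in B6 control 3.

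The 4 adult globins together made up 110.5 TPM in B6 control 2, 2.54-fold more than in the next library, B6 control 3 at 43.6 TPM. The lowest sum was 4.34 TPM, in BALB/c CRS 13. Group means were 60.4 ± 44.2 TPM (SD, n = 3) in B6 control, 31.7 ± 6.42 TPM in B6 CRS, 26.0 ± 13.3 TPM in BALB/c control and 16.3 ± 20.1 TPM in BALB/c CRS. The B6 CRS libraries were the most alike, and in each group the SD was larger than the gap between the means of B6 CRS and BALB/c control.

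Alpha and beta globin varied together from library to library. Over the 12 libraries, the deviations of Hbb-bs from its group means had a Pearson correlation of 0.938 with those of summed alpha globin on the log2(TPM + 1) scale, and Hbb-bt one of 0.401. Without B6 control 2 these were 0.923 and 0.139. The points share the scaling to a fixed total, and the correlations are given as a description.

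**Figure D2:**
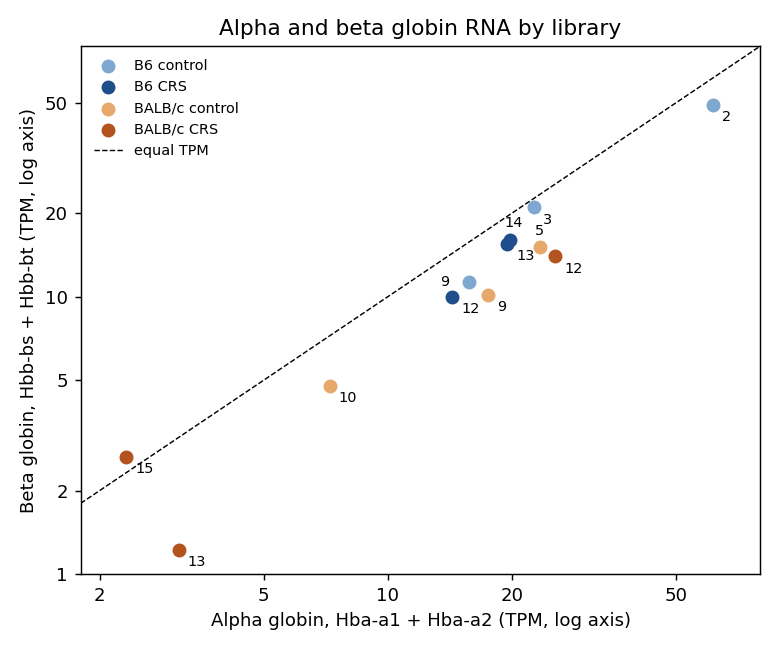
Summed beta globin against summed alpha globin in TPM, both axes logarithmic, with 1 point per library labelled by animal number and a dashed line of equal TPM. The points run from 2.32 TPM of alpha globin in BALB/c CRS 15, the only library above the line, to 61.3 TPM in B6 control 2.

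Stress was followed by no called change in globin RNA in either strain. Changes are given as log2 differences on the scale log2(TPM + 1) from a limma model over all 16423 genes, with Benjamini-Hochberg adjusted p-values called under 0.05. In B6, 0 of the 4 globins were called by limma, and 0% of all genes tested were. None of the 4 had an unadjusted p under 0.05 either, against 4.82% of all genes. The estimates for CRS against control were -0.98 ± 0.72 (SE) for Hba-a1, -0.43 for Hba-a2, -0.80 for Hbb-bs and -0.28 for Hbb-bt, with limma adjusted p = 1 for each. Without B6 control 2, the estimates of Hba-a2 and Hbb-bt in B6 were 0.07 and 0.27.

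In BALB/c, 0 of 4 globins were called by limma under CRS, against 0.00609% of all genes, and 0 had an unadjusted p under 0.05, against 3.03%. The estimates were -1.14 ± 0.72 (SE) for Hba-a1, -0.93 for Hba-a2, -0.90 for Hbb-bs and -0.71 for Hbb-bt, again with limma adjusted p = 1. Leaving out 1 library at a time moved these widely. Hba-a1, Hba-a2 and Hbb-bs were at -1.96, -1.82 and -1.71 without BALB/c CRS 12, Hba-a1 and Hbb-bs at -0.50 and -0.27 without BALB/c CRS 13, and Hba-a2 at -0.29 without BALB/c CRS 15. Hbb-bt was at -0.34 without BALB/c control 9. The control and CRS libraries overlapped for each globin in both strains, while 8.33% of all genes in B6 and 7.39% in BALB/c had groups without overlap. All 4 estimates were below 0 in B6, as were 49.7% of all genes, and all 4 in BALB/c, as were 37.4% of all genes. The 4 genes share their libraries and the copies share reads, so these are not 4 independent signs.

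Averaged over both strains, 0 of 4 globins were called by limma for CRS, against 0.00609% of all genes. The estimate of largest size was Hba-a1 at -1.06 ± 0.51 (SE), with a 95% interval from -2.18 to 0.05 and limma adjusted p = 0.946. Hbb-bs was at -0.85, with an interval from -1.89 to 0.20, and none of the 4 had an unadjusted p under 0.05, against 5.17% of all genes. With 3 libraries a group, the interval of each globin held 0 as well as a fall of 1 log2 unit. The difference of the CRS effect between strains was not called for any globin either (0 of 4 by limma, against 0% of all genes, and 0 of 4 at an unadjusted p under 0.05, against 2.7%), with estimates from -0.50 to -0.10 and limma adjusted p = 1.0.

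Between strains, globin RNA was lower in BALB/c by estimate, and a call was reached for the minor beta gene alone. In controls, 0 of 4 globins were called by limma for BALB/c against B6, against 4.73% of all genes, and 0 had an unadjusted p under 0.05, against 18.7%. The estimates ran from -1.27 ± 0.68 (SE) for Hbb-bs to -0.72 ± 0.65 (SE) for Hba-a2, with limma adjusted p between 0.338 and 0.613. Without B6 control 2 these 2 estimates were -0.76 and -0.23. The strains overlapped for each globin in controls, where 22.9% of all genes did not overlap.

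Under CRS, 0 of 4 globins were called by limma between strains, against 7.7% of all genes, and 1 had an unadjusted p under 0.05, against 23.8%. This was Hbb-bt, at -1.36 ± 0.48 (SE) and limma adjusted p = 0.110. It was the 1 globin whose groups did not overlap, its BALB/c CRS libraries reaching at most 0.425 TPM and its B6 CRS libraries at least 1.02 TPM. Of all genes, 20% had non-overlapping groups with BALB/c lower in this comparison. Hba-a1, Hba-a2 and Hbb-bs were at -1.31, -1.22 and -1.37, and their ranges overlapped because BALB/c CRS 12 lay within or above the range of the B6 CRS values, while BALB/c CRS 13 and 15 lay below it.

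Averaged over control and CRS, Hbb-bt was called lower in BALB/c, by -1.14 ± 0.34 (SE), with limma adjusted p = 0.0376. This was 1 of 4 globins, against 18.4% of all genes called and 14.3% called lower in BALB/c, and the strains overlapped, since BALB/c control 9 was at 2.29 TPM. All 4 estimates were below 0 in controls, under CRS and averaged, as were 67.7%, 58.7% and 63.8% of all genes. Averaged, Hbb-bs was at -1.32 with limma adjusted p = 0.0782, Hba-a1 at -1.23 with 0.121 and Hba-a2 at -0.97 with 0.172. The call of Hbb-bt was kept in 4 of the 12 fits that each left out 1 library, and it ended without the filter on low values (adjusted p = 0.0849) and under median-of-ratios scaling (adjusted p = 0.0559). With the copies summed, limma gave -1.40 for beta globin (adjusted p = 0.0556) and -1.15 for alpha globin (adjusted p = 0.135).

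Among the libraries that bore on these comparisons, 1 in each strain was looked at further. BALB/c CRS 12 had the most alpha globin of its strain, 25.5 TPM, and also stood apart from all others in RNAs that carry no poly(A) tail, which were looked at after their values were seen. Rn18s-rs5, an 18S ribosomal RNA entry, was at 39720 TPM there and at 307 to 1688 TPM in the other 11 libraries, and Rn7s1, an RNA of the signal recognition particle, at 3399 TPM against at most 164 TPM. Without BALB/c CRS 12, Hba-a1, Hba-a2 and Hbb-bs were called lower in BALB/c averaged over treatments, at -1.63, -1.42 and -1.73 (3 of 4 globins, against 13.7% of all genes in the same fit), and Hbb-bt was not called. Without both BALB/c CRS 12 and B6 control 2, 2 of 4 were called averaged over treatments, against 10.8% of all genes (Hba-a2 at -1.17 with limma adjusted p = 0.0158, and Hbb-bs at -1.47 with 0.0241). Under CRS, 3 of 4 were then called, against 5.96% of all genes, with Hba-a2 at -2.11 and limma adjusted p = 0.00771. The fit without both libraries was chosen after the values were seen. BALB/c CRS 12 held the most globin RNA of its group, and B6 control 2 the most of all libraries. Leaving out BALB/c CRS 12 lowers the BALB/c mean by construction and widens the gap between strains. Leaving out B6 control 2 lowers the B6 mean and narrows the gap in controls and averaged over treatments. Under CRS, B6 control 2 bears only on the estimate of the spread. All these calls came from fits without BALB/c CRS 12, so they are no support for a strain difference. Which globins passed the threshold between strains thus depended on these libraries, and on others too. Averaged over treatments, the number called was unchanged in 3 of the 12 fits that each left out 1 library.

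The balance of beta to alpha globin was lower in BALB/c controls than in B6 controls. The ratio of summed beta to summed alpha TPM was 0.802, 0.926 and 0.717 in B6 control 2, 3 and 9, and 0.643, 0.582 and 0.660 in BALB/c control 5, 9 and 10. The control groups did not overlap, but controls were not tested alone, and 3 libraries against 3 can separate by chance. Under CRS, the ratio was 0.697, 0.797 and 0.812 in B6 CRS 12, 13 and 14, and 0.549, 0.394 and 1.14 in BALB/c CRS 12, 13 and 15. The last 2 of these rest on 3.11 and 2.32 TPM of alpha globin.

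On the log2 scale, the ratio was -0.34 ± 0.15 (SD, n = 6) in B6 and -0.67 ± 0.50 (SD, n = 6) in BALB/c. The difference of -0.33 gave p = 0.185 in a two-sided exact permutation test within treatments (400 relabellings, smallest possible p 0.005), and 0.560 after Benjamini-Hochberg adjustment over the 6 tests of ratios and shares. Over libraries with at least 5 TPM of alpha globin, which leave out BALB/c CRS 13 and 15, the difference was -0.43 with an exact p = 0.0125. Leaving out only BALB/c CRS 13, it was -0.16 with an exact p = 0.470, and leaving out only BALB/c CRS 15, it was -0.55 with an exact p = 0.005, the smallest that its relabellings can give. These p-values are unadjusted, and the difference depended on which low library was kept. The strains are those whose beta globin haplotypes differ, and the table holds the gene names of the B6 haplotype, so the ratio and the match of transcripts cannot be told apart. For CRS against control, the difference was -0.04 with an exact permutation p = 0.865.

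Within the pairs, Hba-a2 made up most of alpha globin and Hbb-bt the smaller part of beta globin in every library. The share of Hba-a2 was 66.0 ± 7.29% (SD, n = 6) in B6, and in BALB/c it ran from 59.2% to 100%, the latter where Hba-a1 was listed at 0. The strain difference of 7.76 percentage points gave an exact permutation p = 0.280, and the CRS difference of 8.81 points an exact permutation p = 0.225.

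The Hbb-bt share of beta globin lay between 6.59% and 24.1% in the B6 libraries. In BALB/c it fell into high and low values within each group: 1.31%, 22.5% and 20.4% in control 5, 9 and 10, and 3.04%, 20.5% and 0% in CRS 12, 13 and 15. The strains did not differ in it by more than the spread between libraries (-3.06 points, exact permutation p = 0.575), nor did the treatments (-0.73 points, exact permutation p = 0.905). Since reads within a pair are largely shared, these shares carry the uncertainty of the assignment.

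**Figure D3:**
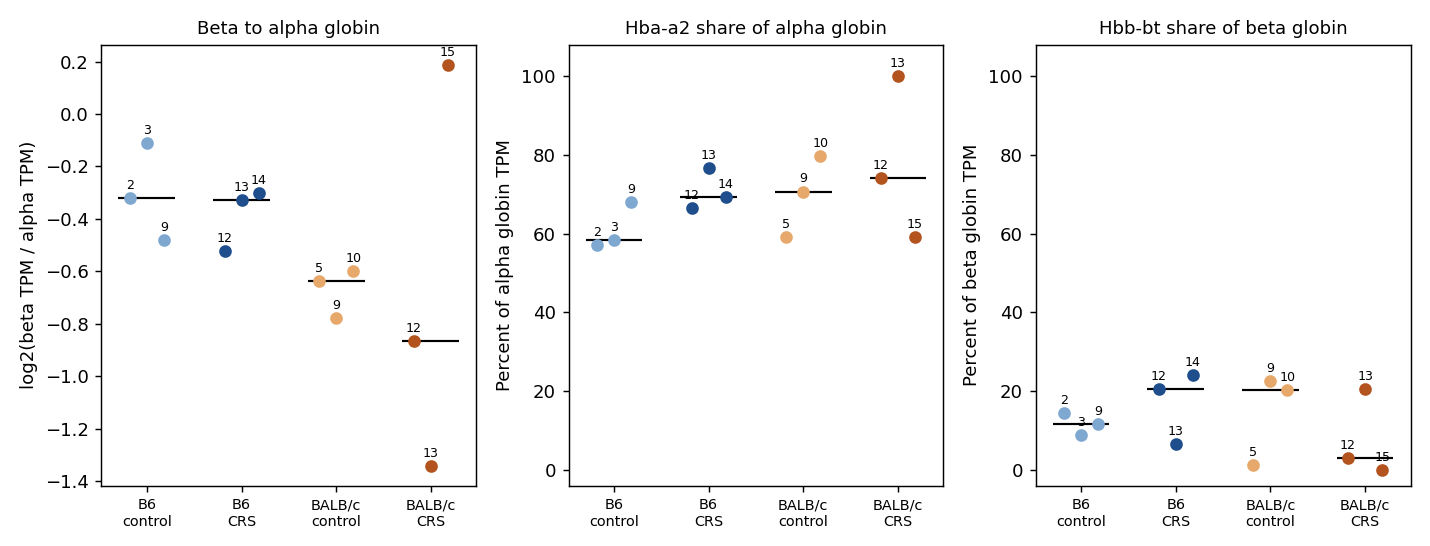
The log2 ratio of beta to alpha globin (left), the Hba-a2 share of alpha globin (middle) and the Hbb-bt share of beta globin (right), with 1 point per library labelled by animal number and a bar at the median of each group. The BALB/c controls lie between -0.78 and -0.60 in the left panel, below the B6 controls, which lie between -0.48 and -0.11. The BALB/c CRS libraries run from -1.34 to 0.19, on both sides of the B6 CRS libraries, which lie between -0.52 and -0.30.

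Other transcripts of red cell precursors were near 0. Of a list of 15 erythroid marker genes, 14 occurred in the table, each under 1 TPM in all 12 libraries, and none passed the filter for testing. Gata1, the master regulator of erythroid genes, was listed at 0 throughout. Their summed level was 1.53 TPM in B6 control 2 and 0.224 to 0.735 TPM in the others. Among 10 other globin genes, the embryonic Hba-x, Hbb-bh1 and the related Hbb-bh0 and Hbb-bh2 were listed at 0 in all libraries. The embryonic Hbb-y was at 0.366, 0.356 and 0.185 TPM in B6 control 3, B6 CRS 13 and B6 CRS 14, and listed at 0 elsewhere. Of the 10, those tested were Cygb (24.9 to 42.4 TPM) and Ngb (1.88 to 14.0 TPM), the cytoglobin and neuroglobin genes, and Hbq1a (0 to 3.11 TPM), a theta globin. Of these 3, 0 were called in any of the 7 comparisons, in which 0% to 18.4% of all genes were called.

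Some neutrophil genes were highest in B6 control 2. The 9 neutrophil markers summed to 27.2 TPM there and to 0.533 to 3.20 TPM in the other 11 libraries. S100a8 and S100a9, subunits of the neutrophil protein calprotectin, were both at 11.1 TPM in B6 control 2, against at most 1.93 and 1.47 TPM elsewhere, and the granule genes Ngp and Camp were at 2.70 and 1.30 TPM. Of the 9 markers, 6 were highest in that library and 3 were not: the receptor gene Cxcr2 was at 0.302 TPM there and up to 0.678 TPM elsewhere, Mpo was listed at 0 there and was at 0.520 TPM in B6 CRS 12, and Retnlg was at 0.189 TPM there and 0.196 TPM in B6 CRS 12. The 9 platelet markers summed to 6.81 TPM in B6 control 2, within the range of 4.52 to 8.22 TPM. Gene by gene, 3 of them were highest in that library. These were Ppbp (0.322 TPM, against 0.0861 TPM in B6 control 3), Gp1ba (0.0305 TPM, listed at 0 elsewhere) and Gp1bb (2.00 TPM, against 1.98 TPM in B6 control 9). The rest were highest in other libraries or listed at 0 throughout. Of 10 lymphocyte markers, 9 were below 1 TPM in all libraries, and Cd3e was listed at 0 throughout. The exception, the T cell receptor gene Trbc2, ran from 13.7 to 91.3 TPM, with 30.8 TPM in B6 control 2. It was called higher in BALB/c averaged over treatments (0.84, limma adjusted p = 0.0347), where 18.4% of all genes were called. Which cells its RNA came from was not tested. The 9 endothelial markers, genes of the vessel wall, summed to 131 to 161 TPM over all libraries, while the adult globins summed over the same libraries ranged 25.5-fold. Whether the globin RNA came from blood or from cells of the brain was not tested.

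Marker lists of other cell types were set against the 14.3% of all genes called lower in BALB/c averaged over treatments. The 6 oligodendrocyte markers summed to 2399 to 9223 TPM in the B6 libraries and to 461 to 2949 TPM in BALB/c, and all 6 were called lower in BALB/c averaged over treatments. All 6 striatal neuron markers were called lower too, with a median of -2.56 against -0.08 over all genes, and B6 control 2 had the highest sums of both lists. Of the lists nearer to vessels, 3 of 5 tested choroid plexus markers were called lower in BALB/c (median -0.79), 1 of 8 meningeal markers (Igf2, -1.08, limma adjusted p = 0.00574), 1 of 9 endothelial markers (Slc2a1, -0.26, limma adjusted p = 0.04997) and 0 of 9 mural cell markers (lowest limma adjusted p = 0.0539). The part of these tissue differences in the globin values was not tested.

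**Figure D4:**
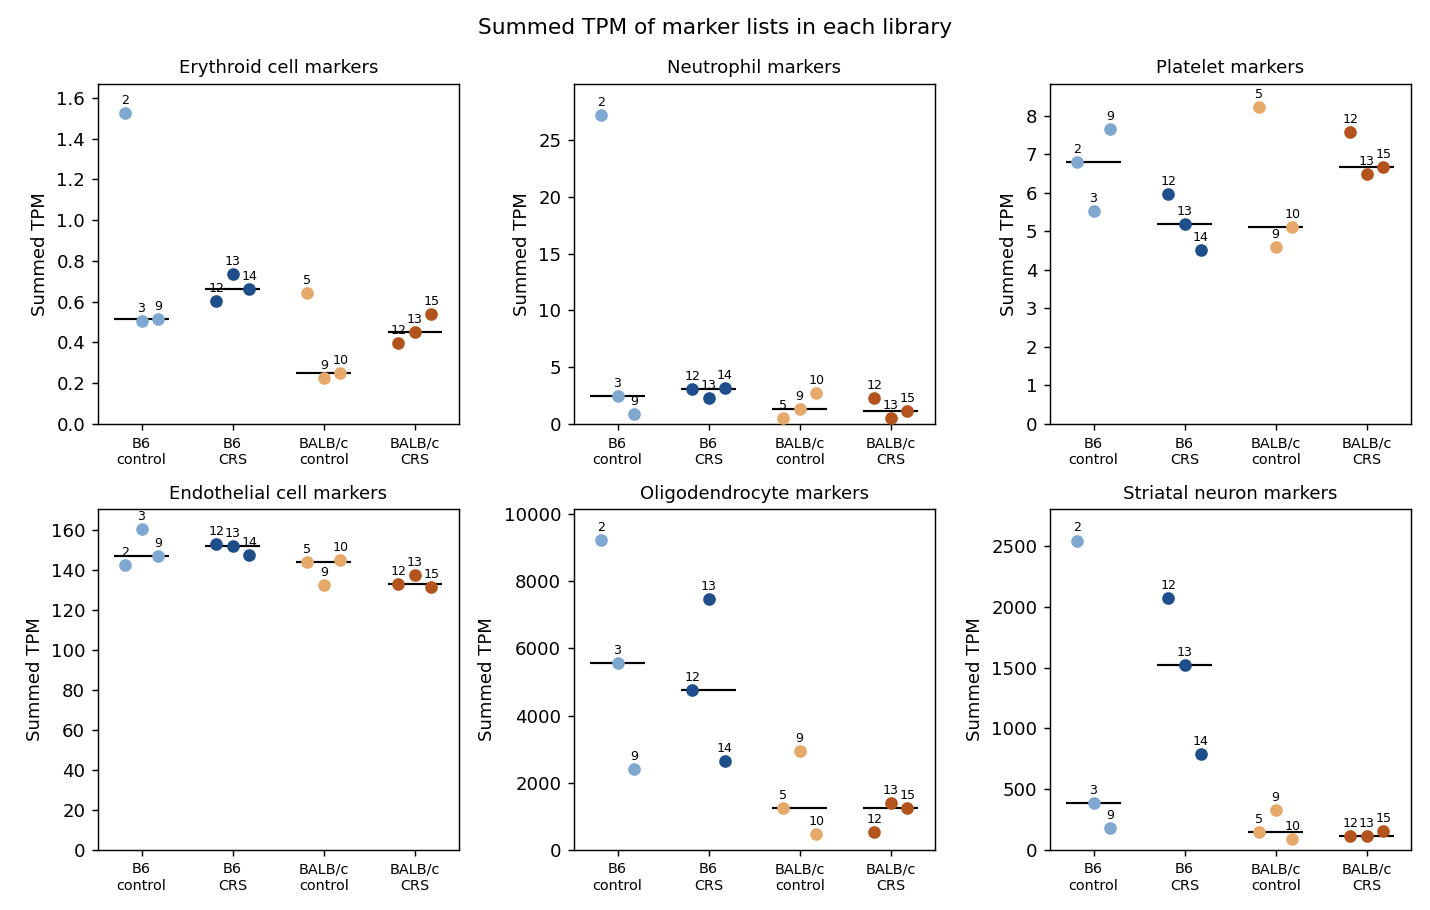
Summed TPM of 6 marker lists, with 1 point per library labelled by animal number and a bar at the median of each group. B6 control 2 stands apart in neutrophil markers at 27.2 TPM and in erythroid markers at 1.53 TPM, while endothelial sums stay between 131 and 161 TPM in all libraries.

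Of 12 genes of heme synthesis and iron supply, all tested, 0 were called for CRS, while 1 was higher and 2 were lower in BALB/c averaged over treatments, a share of called genes near the 18.4% over all genes. Alad, the enzyme of the step after Alas1, was at 19.1 to 24.3 TPM in B6 and 37.3 to 50.7 TPM in BALB/c, without overlap (0.94 ± 0.10 (SE), limma adjusted p = 4.51e-05). Cpox and Ppox, enzymes of the late mitochondrial steps, were lower in BALB/c by -0.60 and -0.61 (limma adjusted p = 0.00722 and 0.0159). The median of the list was -0.11, against -0.08 over all genes and -1.18 over the adult globins.

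Of 8 genes of heme breakdown and hemoglobin clearance, 5 were tested and 1 was called between strains averaged over treatments, against 18.4% of all genes. Blvrb, a biliverdin reductase, was at 10.96 to 13.6 TPM in B6 and 18.6 to 21.2 TPM in BALB/c (0.66 ± 0.07 (SE), limma adjusted p = 3.35e-05). Hmox1, the inducible heme oxygenase, stayed between 3.33 and 5.12 TPM in all libraries.

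The genes most like alpha globin were found by the Pearson correlation of deviations from the group means over the 12 libraries. After Hbb-bs, they were Mfsd10 (0.927), Fhit (0.911), Rn7sk (0.910), Rpph1 (0.909) and Irf5 (0.899). Rn7sk and Rpph1 are noncoding RNAs without a poly(A) tail, and their highest values by far, 417 and 66.3 TPM, were in BALB/c CRS 12. Without that library, their correlations were 0.756 and 0.746, and that of Hbb-bs was 0.878.

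Adding the alpha globin level of each library to the model changed how many other genes were called between strains. With log2(Hba-a1 + Hba-a2 + 1) as a covariate and the globins left out of the count, the genes called between strains in controls went from 777 to 620, of which 575 were called in both fits. Under CRS, the numbers were 1264 without and 584 with the covariate, and 536 in both. Averaged over treatments, they were 3020 and 1682, and 1536 in both. The covariate takes 1 of the 8 residual degrees of freedom and differs between the strains by estimate, and how much of the loss comes from either was not tested.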

How the data were processed

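RNA-seq of 12 medial prefrontal cortex libraries was used in 4 groups of 3. The authors deposited 1 table of 147902 rows with a gene name and a TPM value per library. The unit was read from column sums of 1000000. Per the submitters' processing notes, cutadapt 2.9, Salmon and the build GRCm38 were named; the annotation is not given in the sources used here. Of the 55678 names, 48217 occur in GENCODE M21. TPM values were summed over rows sharing a name. The 16423 genes that reached 1 TPM in 3 or more libraries were fitted on log2(TPM + 1) as 4 group means (8 residual degrees of freedom, 7 contrasts) in limma 3.58.1 under R 4.3.3, with an intensity trend, tested on simulated data. This scale understates changes of low genes. Ratios and shares were compared by exact permutation. Named genes were the members, genes of 14 lists (125 genes) that were called or among the 3 highest, defining markers, and the 5 genes most like alpha globin. Ngp, Camp, Retnlg, Mpo, Ppbp, Gp1ba, Hbb-y, Hmox1 and RNAs without a poly(A) tail were named after their values were seen. Members and lists were chosen with earlier results of these data known. Sequences came from GENCODE M21 (GRCm38) and the RefSeq promoter table (GRCm38.p6), which held all 5 genes present. Depth is unknown, so precision rests on the spread between animals.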

Additional observations from a re-analysis of the deposited data

How the results depend on the processing

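For CRS in either strain, averaged or as an interaction, 0 of 4 globins were called under each alternative run. Directions were counted over genes and alternative fits, which reuse the same libraries. The globin estimates for BALB/c against B6 were all below 0 (51 of 51 in controls, 51 of 51 under CRS and 71 of 71 averaged). For CRS against control, 46 of 51 were below 0 in B6, 51 of 51 in BALB/c and 71 of 71 averaged over strains. The number of globins called between strains averaged over treatments, 1 in the report, was 0 without a filter, at a mean of at least 5 TPM, with median-of-ratios scaling, with the copies summed and with the replicate block; it was 2 without B6 control 2 and BALB/c CRS 12 together, an alternative chosen after seeing the data, and 0 to 3 without single libraries, where 12% to 23.1% of all genes were called (10.8% without both). Under CRS it was 1 with only the compared groups fitted (Hbb-bt, adjusted p = 0.0398), 3 without both libraries, and 0 to 1 without single ones, where 3.28% to 5.6% of all genes were called (5.96% without both). In the fit with both libraries left out, Hba-a2 and Hbb-bt in B6 turned to 0.067 and 0.27. Hba-a1 and Hbb-bs interactions ran from -0.98 to 0.48 and from -0.91 to 0.53 without single libraries, and the Hba-a2 one from -1.39 to 0.14. Without single libraries, Hba-a2 and Hbb-bt for CRS in B6 ran from -0.75 to 0.067 and from -0.63 to 0.27. The log2 beta to alpha ratio between strains ran from -0.55 to -0.16. It was -0.43 with at least 5 TPM of alpha globin, where only BALB/c CRS 12 was left in its group. For CRS the ratio ran from -0.26 to 0.13 without single libraries. The Hba-a2 share ran from 2.20 to 12.4 points between strains and from 3.25 to 13.5 for CRS, the latter with an exact p = 0.045 without BALB/c CRS 15. The Hbb-bt share ran from -6.22 to 0.29 points between strains and from -4.09 to 1.89 for CRS.

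Animal numbers shared between strains belong to different animals. With them as a replicate block, Hbb-bt averaged over treatments was at -1.14 (adjusted p = 0.0805), and deviations of same-numbered libraries correlated at -0.24, -0.03 and -0.04. Over all genes, the count called between strains in controls was 777, and 437 at a mean of at least 5 TPM or 443 with only those groups; under CRS it was 1264, and 702 at 5 TPM or 750 with the block; averaged it was 3021, and 1929 at 5 TPM. Median-of-ratios scaling moved the median of all genes in controls from -0.10 to 0.01. TPM keeps no depth, so counting error at the low values of Hbb-bt and Alas2 is unknown.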
